A study of Mus musculus with 4 samples.

Results

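Prostaglandins and leukotrienes are lipid signals that cells make from arachidonic acid. The expression of 9 genes of these pathways was examined in colonic monocytes and macrophages: Alox5, Alox5ap, Lta4h and Ltc4s of leukotriene synthesis, Ptgs1, Ptgs2, Ptges3 and Hpgds of prostanoid synthesis, and Pla2g7, which encodes an enzyme that breaks down platelet-activating factor. The genes were chosen by name, with earlier results of these data known, and all 9 had a row among the 12596 genes of the table. The cells came from the colonic lamina propria of male C57/Bl6N mice that had been gavaged 5 days a week for about 6 months with 12 µg diesel exhaust particles (DEP) in 200 µL PBS (mice 14 and 15) or with PBS alone (mice 2 and 3). They were sorted as CD11b+ and either Ly6C+ or CD64+, and 1 well of a 10x 3′ chip was loaded per mouse. With 2 mice per group, the group comparisons rest on few animals. The p-values of the fits below lean on a spread shared over genes, and only in part on the spread between those animals.

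In the leukotriene branch, 5-lipoxygenase (Alox5) works with its partner in the nuclear membrane, FLAP (Alox5ap), to form leukotriene A4. Leukotriene A4 hydrolase (Lta4h) turns it into the neutrophil attractant leukotriene B4, and leukotriene C4 synthase (Ltc4s) turns it into the cysteinyl leukotrienes. In the prostanoid branch, the cyclooxygenases Ptgs1 (usually constitutive) and Ptgs2 (usually inducible) form prostaglandin H2, from which Hpgds makes prostaglandin D2 and the prostaglandin E synthases, Ptges3 among them, make prostaglandin E2. Ptges3 is also the HSP90 co-chaperone p23. In the gut wall, blood monocytes enter the lamina propria and mature into tissue macrophages, losing Ly6C and gaining the complement genes C1qa, C1qb and C1qc.

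Of 943 cells, 805 were retained after leaving out those with 3 or more detected markers of another cell class, and they held 3325001 unique molecular identifiers (UMIs), each standing for 1 captured mRNA molecule. The 4 mice gave 155 to 269 retained cells and 668499 to 969606 UMIs each. Of the 138 cells left out, 121 had 3 or more B or plasma cell markers, mostly immunoglobulin transcripts, and 107 were C1q-high. The rule removed a larger part of the cells of the DEP mice. It took 34 of 189 and 65 of 334 cells in DEP mice 14 and 15. In PBS mice 2 and 3 it took 14 of 200 and 25 of 220. The cells left out had a median of 5694.5 UMIs, against 3513 in the retained cells. A cell was called Plac8-high with 2 or more UMIs of Plac8, a monocyte transcript (181 cells), and C1q-high with C1qa, C1qb and C1qc at 0.5% or more of its UMIs (657 cells). Some cells were in both classes (48) or near a cut. A single Plac8 UMI was held by 48 cells, 2 by 16 and 3 or more by 165. A C1q share of 0.3 to 0.5% was seen in 9 cells and one of 0.5 to 0.7% in 15. Whether the cuts part separate types was not tested. Comparisons between classes used the 133 cells that were Plac8-high only and the 609 that were C1q-high only. The monocyte marker Ly6c2 stood at 563 to 1008 CPM (UMIs scaled to a library total of 1000000) in the 4 mice in the former and at 3.60 to 5.90 CPM in the latter, and the macrophage marker Adgre1 at 136 to 237 CPM against 521 to 580 CPM. One barcode of 942 occurred in 2 mice.

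The 2 cyclooxygenase genes and the 2 synthase genes that differed most between the classes are shown by the DNA just before their start sites, since each held 1 of the short motifs searched, the same one in Ptgs1, Ltc4s and Hpgds and another in Ptgs2. The sequences are RefSeq promoter windows of GRCm38.p6, read 5′ to 3′ on the strand of the gene, in lower case with motif matches in capitals. RefSeq windows were at hand for 8 of the 9 genes.
Ptgs1, chr2:36230176-36230425 (+): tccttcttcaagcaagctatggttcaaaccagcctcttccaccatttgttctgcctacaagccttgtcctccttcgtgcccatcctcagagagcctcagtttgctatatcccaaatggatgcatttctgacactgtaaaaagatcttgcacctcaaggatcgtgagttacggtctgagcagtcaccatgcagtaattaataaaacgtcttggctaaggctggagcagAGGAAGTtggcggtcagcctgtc
Ltc4s, chr11:50238617-50238782 (-): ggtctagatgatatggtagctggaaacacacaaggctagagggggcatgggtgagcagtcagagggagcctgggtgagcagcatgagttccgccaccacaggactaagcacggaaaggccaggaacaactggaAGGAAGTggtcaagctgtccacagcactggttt
Hpgds, chr6:65144762-65144788 (-): ttttaggtggAGGAAGTggcctctggc
Ptgs2, chr1:150099781-150100030 (+): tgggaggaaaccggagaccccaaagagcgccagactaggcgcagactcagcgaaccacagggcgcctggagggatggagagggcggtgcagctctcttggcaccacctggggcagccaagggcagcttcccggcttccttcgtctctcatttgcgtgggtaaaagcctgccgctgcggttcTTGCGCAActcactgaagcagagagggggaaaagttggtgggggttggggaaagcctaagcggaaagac
Each 300-base window, 250 bases before and 50 after the start, was searched on both strands for AGGAAGT (the core bound by ETS factors such as PU.1), TTGCGCAA (a C/EBP palindrome), GGAATTTCC (NF-kB) and GAAANNGAA (IRF). AGGAAGT occurred once, on the strand of the gene, at positions -23 to -17 from the start of Ptgs1, -48 to -42 from that of Hpgds and -117 to -111 from that of Ltc4s, and 9.35% of all 32851 promoter windows held it. TTGCGCAA occurred at -69 to -62 in Ptgs2 and in 0.183% of all windows. NF-kB (0.317% of windows) and IRF (8.56%) letters were found in none of the 8 windows, and the windows of Alox5, Lta4h, Ptges3 and Pla2g7 held none of the 4 motifs. For Hpgds and Ltc4s, GENCODE places the earliest start 178 and 84 bases upstream of the RefSeq one, so that the Hpgds match lies within an exon of the longer model and only 27 bases around it are given.

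Of the leukotriene genes, Alox5ap and Ltc4s lay on opposite sides. Alox5ap, at chr5:149264767-149288153 (positions are from GENCODE M21, build mm10), was higher in the Plac8-high cells. In Plac8-high only cells it stood at 1193 and 1137 CPM in DEP mice 14 and 15 and at 1701 and 1702 CPM in PBS mice 2 and 3. In C1q-high only cells it stood at 183, 228, 104 and 152 CPM in the same mice. Every mouse was lower in its C1q-high cells and the classes did not overlap. The fold change of C1q-high over Plac8-high cells was -2.78 on the log2 scale (SE 0.17, n = 4 mice with the mouse as a block, edgeR quasi-likelihood adjusted p = 1.33e-20). Pooled over mice, the level was 7.93-fold higher in Plac8-high only cells (exact Poisson interval 6.99 to 8.99, which covers counting error only). A UMI of Alox5ap was seen in 122 of the 133 Plac8-high only cells and in 217 of the 609 C1q-high only cells. With every cell thinned to 1000 UMIs the shares were 68.4% and 17.1%. Among 8 B cell-like cells, left out of the comparisons and with a median of 1645 UMIs, 1 held a UMI of it.

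Ltc4s, the gene of leukotriene C4 synthase at chr11:50236461-50238616, had the opposite distribution. Plac8-high only cells held a single UMI of it, in DEP mouse 15. The C1q-high only cells of mice 14, 15, 2 and 3 held 47, 65, 35 and 93 UMIs, or 84.5, 91.7, 62.6 and 109.8 CPM. The groups did not overlap, and the pooled ratio was 37.5 with a counting interval of 6.67 to 1489 (adjusted p = 1.48e-09, edgeR). The interval is wide because of the single UMI.

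Alox5, the lipoxygenase gene at chr6:116410077-116461178, was scarce in both classes. It was seen in 5.84% of retained cells. The C1q-high only cells held 16.1 to 21.2 CPM in the 4 mice, and the Plac8-high only cells held 2 UMIs, both in PBS mouse 2, where they made 40.0 CPM. The pooled ratio of C1q-high to Plac8-high cells was 4.07 with a counting interval of 1.07 to 34.5. The test did not reach the threshold (log2 2.19, SE 0.91, adjusted p = 0.0841 by edgeR), and it did in 3 of the 14 alternatives: without PBS mouse 2, which held those UMIs (adjusted p = 0.00391), with the likelihood ratio test (0.0329) and with looser class cuts (0.0203). Lta4h, for the leukotriene B4 step, at chr10:93453411-93484875, was as scarce, at 11.4 to 38.8 CPM in Plac8-high only and 7.16 to 21.6 CPM in C1q-high only cells, and the mice overlapped (log2 -0.29, SE 0.61, adjusted p = 0.806 by edgeR). On 9 and 40 UMIs, the counting interval of the pooled ratio of C1q-high to Plac8-high cells was 0.332 to 1.63. It covers counting error only, without the spread between mice.

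In the prostanoid branch, Ptgs1 and Hpgds were higher in C1q-high cells. Ptgs1, the constitutive cyclooxygenase at chr2:36230426-36252272, had no UMI in any of the 133 Plac8-high only cells, which allows a share of up to 2.26% of such cells with a UMI (the two-sided exact binomial interval ends at 2.74%). Its C1q-high only cells held 77, 77, 86 and 88 UMIs in mice 14, 15, 2 and 3, or 139, 109, 154 and 104 CPM. The level was at least 17.1-fold higher in C1q-high only cells, set against a floor of 3 UMIs over the pooled Plac8-high only cells (adjusted p = 7.73e-12, edgeR). The two-sided exact counting interval of the ratio starts lower, at 13.8. The 14 UMIs of Ptgs1 in Plac8-high cells as a whole all lay in the 48 cells of both classes. Unthinned, 203 of the 609 C1q-high only cells held a UMI, and 9.36% did after thinning. The median depth was 3183 UMIs per Plac8-high only and 3811 per C1q-high only cell.

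Hpgds, the hematopoietic prostaglandin D synthase gene at chr6:65117293-65144908, followed the same distribution. Plac8-high only cells held 1 UMI, in PBS mouse 2. C1q-high only cells held 157, 121, 136 and 167 UMIs in mice 14, 15, 2 and 3, or 282, 171, 243 and 197 CPM. The pooled ratio was 90.9 with a counting interval of 16.2 to 3595 (adjusted p = 3.95e-15, edgeR). A UMI was seen in 51.6% of the C1q-high only cells (exact binomial interval 47.5 to 55.6%) and in 19.1% of them after thinning.

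Ptgs2, the inducible cyclooxygenase at chr1:150100031-150108227, leaned to the Plac8-high cells, but not in every mouse. In Plac8-high only cells it stood at 204, 409, 20.01 and 158 CPM in mice 14, 15, 2 and 3. In C1q-high only cells it stood at 50.4, 90.3, 123 and 47.2 CPM. Mice 14, 15 and 3 were higher in Plac8-high cells and PBS mouse 2, with 1 UMI of Ptgs2 in its 16 Plac8-high only cells, was higher in C1q-high cells. The fold change of C1q-high over Plac8-high cells was -1.30 (log2, SE 0.28, adjusted p = 0.000218, edgeR), and the pooled level was 3.44-fold higher in Plac8-high only cells (2.69 to 4.36). The call rested on DEP mouse 15, without which the change was -0.82 with an adjusted p of 0.0945. DESeq2 did not make it either (log2 -0.99, adjusted p = 0.266). Few cells carried most of the transcript: 11 of the 133 Plac8-high only cells together held 56 of its 108 UMIs, and 1 cell held 10.

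Ptges3, the prostaglandin E synthase and co-chaperone gene at chr10:128058954-128077272, did not separate the classes. It stood at 100.1 to 126 CPM in Plac8-high only and at 82.3 to 124 CPM in C1q-high only cells (log2 0.11, SE 0.25, adjusted p = 0.818, edgeR). The pooled ratio of C1q-high to Plac8-high cells was 0.852, with a counting interval of 0.627 to 1.18. The ratio leans the other way from the fitted change, which is scaled between libraries as the ratio is not. A processed pseudogene, Ptges3-ps, is annotated elsewhere in the genome, and reads of the 2 could be split between them.

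Pla2g7, the platelet-activating factor acetylhydrolase gene at chr17:43568098-43612201, was found in both classes and was higher in C1q-high cells of every mouse. It stood at 223, 301, 180.1 and 192 CPM in the Plac8-high only cells of mice 14, 15, 2 and 3 and at 514, 392, 483 and 535 CPM in their C1q-high only cells, without overlap (log2 1.28, SE 0.19, adjusted p = 2.51e-07, edgeR).

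**Figure D1:**
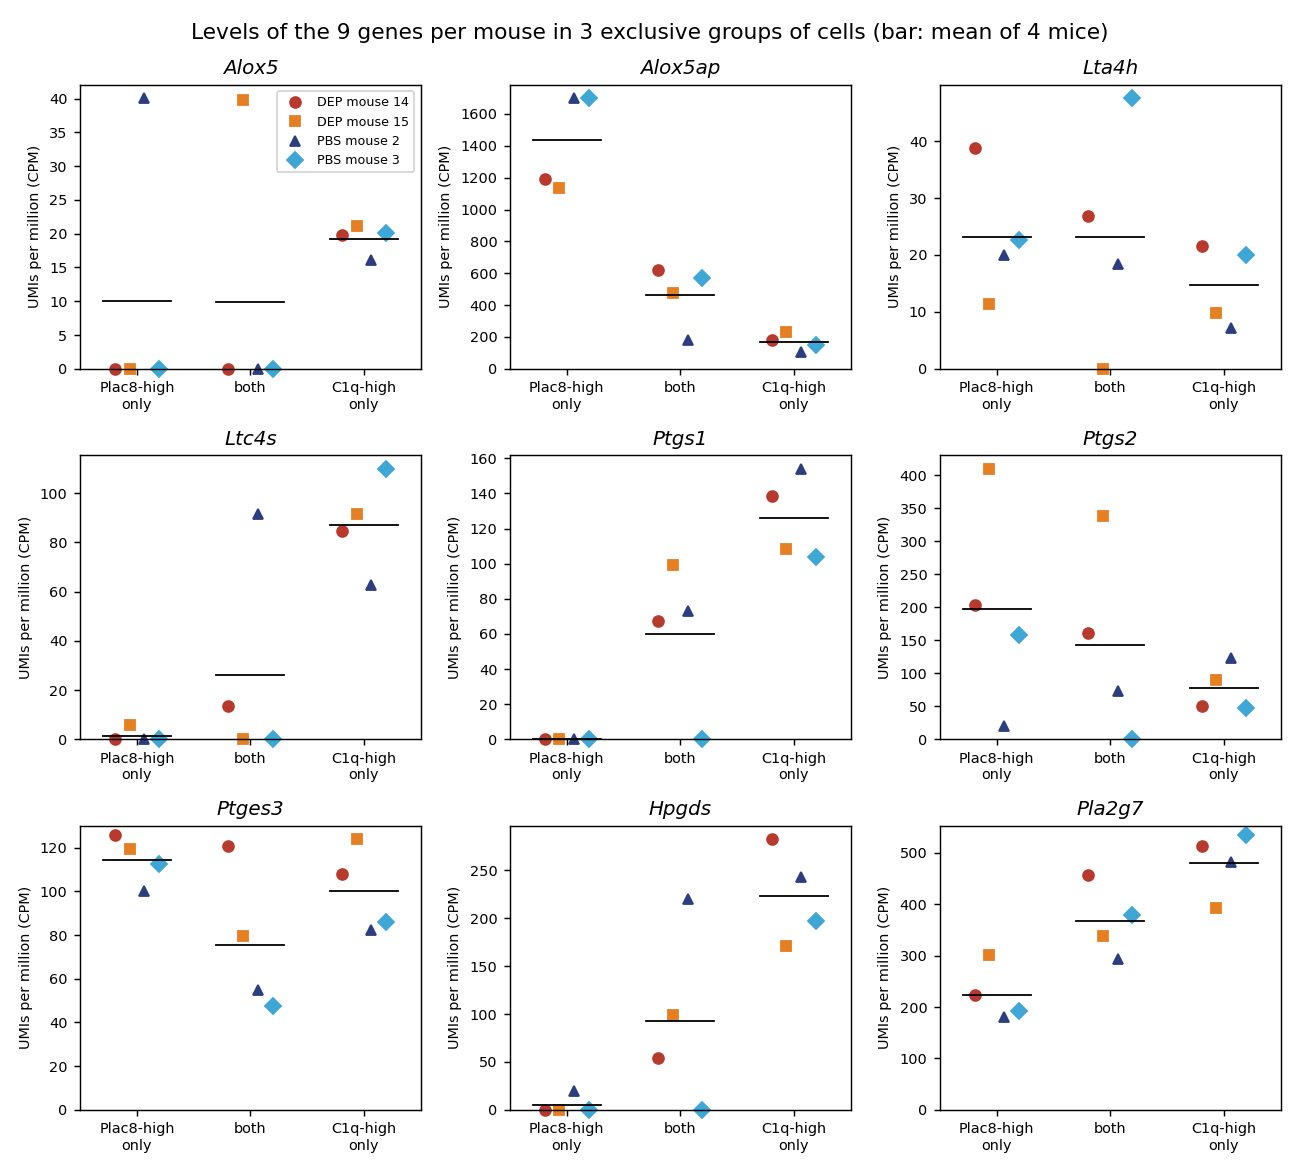
Level (CPM, vertical axes, each from 0) of the 9 genes in Plac8-high only cells, cells of both classes and C1q-high only cells, with 1 symbol per mouse and a bar at the mean of 4 mice. Alox5ap falls from a range of 1137 to 1702 CPM to one of 104 to 228 CPM, and Ptgs1 rises from 0 in every mouse to between 104 and 154 CPM.

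Of the 9 genes, then, 4 passed as higher in C1q-high cells (Ltc4s, Ptgs1, Hpgds and Pla2g7) and 2 as higher in Plac8-high cells (Alox5ap and Ptgs2). Of all 5351 genes tested, 11.6% passed as higher in C1q-high and 8.63% as higher in Plac8-high cells, and the median log2 change over all of them was 0.10. The calls for Alox5ap, Ltc4s, Ptgs1, Hpgds and Pla2g7 held under each of the 15 alternatives run. The sizes depended on the cells of both classes: with those cells counted in both classes the log2 change was 2.72 for Hpgds, 2.58 for Ptgs1, 3.02 for Ltc4s, 0.92 for Pla2g7, -2.33 for Alox5ap and -1.10 for Ptgs2. In the classes with those cells included, pooled Hpgds stood at 209.7 CPM in C1q-high and 35.6 CPM in Plac8-high cells. Markers of other cell classes that can carry such transcripts were summed in the same cells. Of 13 mast cell or basophil markers 2 were listed in the table, and they summed to 3.60 to 8.95 CPM in C1q-high only cells of the 4 mice. In Plac8-high only cells they summed to 0 to 87.3 CPM, the 5 listed of 12 neutrophil markers to 96.7 to 200.1 CPM, the 4 listed of 8 eosinophil markers, with Siglecf and Prg2 at 0, to 0 to 101.5 CPM and the 6 listed of 10 dendritic cell markers to 0 to 296 CPM. The neutrophil, eosinophil and dendritic cell markers summed to 29.5 to 49.4, 1.80 to 7.16 and 29.6 to 57.6 CPM in C1q-high only cells. Their part in the levels of Alox5ap and Ptgs2 was not tested.

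By the mean of the 4 mice, the cells of both classes lay between the 2 exclusive groups for Alox5ap, Ltc4s, Ptgs1, Ptgs2, Hpgds and Pla2g7. In those 48 cells Alox5ap stood at 617 and 477 CPM in DEP mice 14 and 15 and at 183 and 570.0 CPM in PBS mice 2 and 3, between the 2 exclusive groups in each mouse. Hpgds stood at 53.7, 99.3 and 219.9 CPM in mice 14, 15 and 2, with no UMI among the 5 cells of PBS mouse 3. The levels were also followed along the C1q share of the cells. Pooled over mice, Alox5ap was at 1260 CPM below 0.5%, at 424 CPM from 0.5 to 1%, at 202 CPM from 1 to 1.5%, at 174 CPM from 1.5 to 2% and at 158 CPM at 2% or more. Hpgds went from 8.81 to 103, 193, 218 and 230 CPM over the 5 bins, and Ptgs1 from 2.20 to 90.8, 86.9, 117 and 148 CPM. Pla2g7 went from 236 to 345, 437, 496 and 496 CPM, Ptgs2 from 255 to 139, 94.8, 88.2 and 55.1 CPM and Ltc4s from 4.40 to 84.8, 86.9, 98.1 and 70.7 CPM. For each of these 6 genes the largest step in CPM lay between cells under 0.5% and cells from 0.5 to 1%, a bin of 50 cells. Ptges3 ranged from 91.5 to 121 CPM over the bins. The bins are a description without a test.

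**Figure D2:**
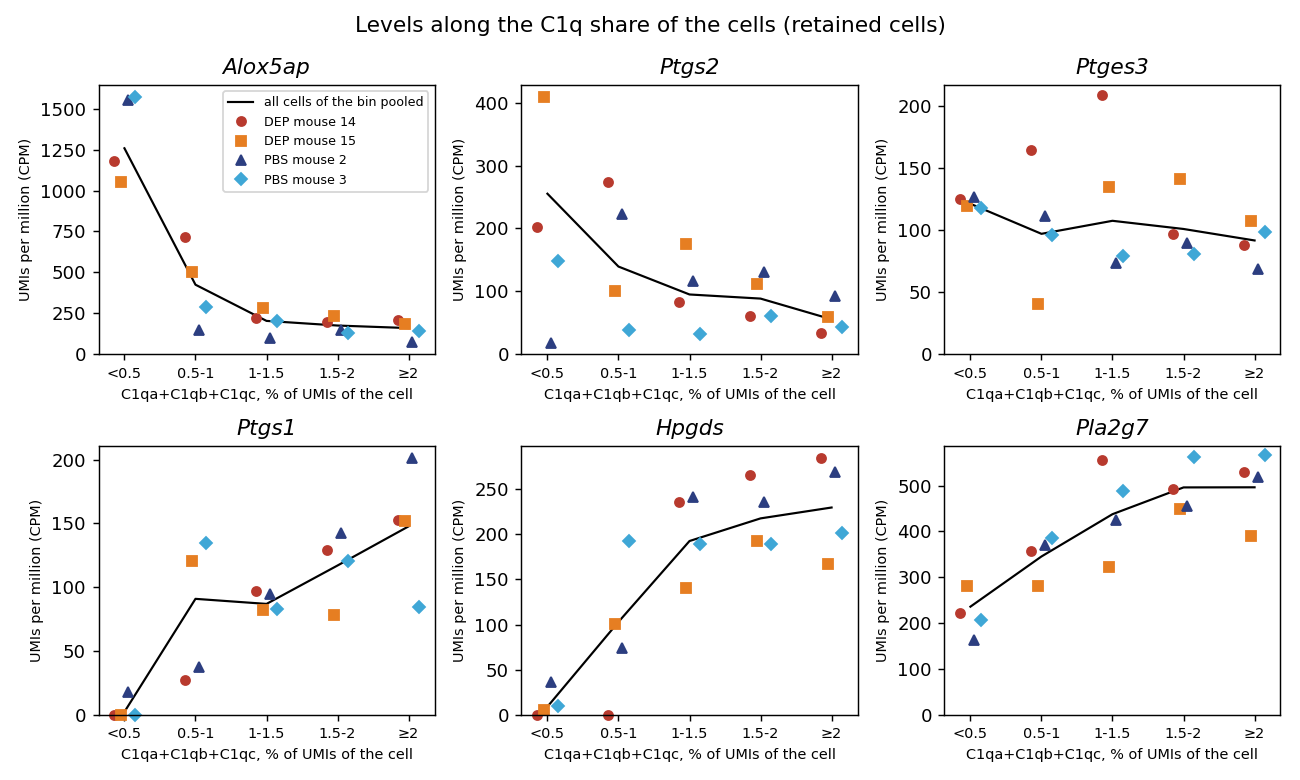
Level (CPM, vertical axes from 0) of 6 genes in retained cells binned by the share of C1qa, C1qb and C1qc among their UMIs (horizontal axis, percent); symbols are mice and the line pools all cells of a bin. Alox5ap falls from 1260 to 158 CPM and Hpgds rises from 8.81 to 230 CPM, while Ptges3 ranges from 91.5 to 121 CPM.

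Across single cells, the genes most like each member were listed for members seen in 20% or more of the cells. Over the 805 retained cells, and on the scale of log2(UMIs per 10000 + 1), the genes closest to Alox5ap were S100a6 (Pearson r = 0.57), Lsp1 (0.57) and Ifitm3 (0.56). Those closest to Hpgds were C1qa (0.36), Cd81 (0.36) and Ms4a7 (0.35), of which C1qa itself sets the C1q-high class. The closest to Pla2g7 was Apoe (0.32), and the closest to Ptgs2 was Clec4e (0.34), a C-type lectin of activated myeloid cells. No gene reached 0.3 with Ptgs1 or Ptges3. The cells share libraries and depth, so these values describe the cells and carry no test. Alox5ap ran against Hpgds (r = -0.24), Pla2g7 (-0.27) and Ptgs1 (-0.23). Ptgs2 ran with neither side, at r = 0.05 with Alox5ap, 0.03 with Pla2g7, -0.04 with Ptgs1 and -0.08 with Hpgds. Within C1q-high cells, 66.7% of the 213 cells with a Ptgs1 UMI also had one of Hpgds, against 42.1% of those without, but the former were deeper (median 5311 against 3129 UMIs).

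The other genes of these pathways made a list of 72. The table listed 49 of them and 30 passed the filter on low counts, of which 6 passed as higher in C1q-high and 3 as higher in Plac8-high cells (median log2 change 0.46, against 0.10 over all genes). Over all genes the shares were 11.6% and 8.63%. Of the prostanoid synthesis genes, 3 of the 4 tested were higher in C1q-high cells. Tbxas1, for thromboxane synthase, stood at 128, 104, 143 and 102 CPM in the C1q-high only cells of mice 14, 15, 2 and 3 and at 107, 45.5, 20.01 and 22.5 CPM in their Plac8-high only cells (log2 1.42, SE 0.31, adjusted p = 0.000392, edgeR). Cbr1, a carbonyl reductase that acts on prostaglandin E2, had 3 UMIs in all Plac8-high only cells and 26.8 to 32.2 CPM per mouse in C1q-high only cells (pooled ratio 4.01 with a counting interval of 1.32 to 19.9, adjusted p = 0.0179). Fam213b, for a prostaglandin F synthase, went from 19.4 to 28.4 CPM up to 67.7 to 90.9 CPM (log2 1.92, adjusted p = 0.000129). Akr1b3 did not pass (log2 0.48, adjusted p = 0.188).

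The receptors were divided. Ptger4, the prostaglandin E2 receptor EP4, was higher in C1q-high cells (log2 1.09, SE 0.33, adjusted p = 0.0109, edgeR), where it stood at 70.2 to 114 CPM, with PBS mouse 3 at 78.9 CPM in Plac8-high only and 73.2 CPM in C1q-high only cells. Ltb4r1, the high-affinity leukotriene B4 receptor, was on the side of Alox5ap. It stood at 87.3, 119, 200.1 and 158 CPM in the Plac8-high only cells of mice 14, 15, 2 and 3 and at 1.80, 1.41, 3.58 and 11.8 CPM in C1q-high only cells, without overlap (log2 -4.46, SE 0.44, adjusted p = 2.16e-12, edgeR). Cysltr1, a receptor of the cysteinyl leukotrienes, did not pass (log2 1.05, adjusted p = 0.0957), nor did Fpr2 (log2 -0.81, adjusted p = 0.384). Of 9 prostanoid receptors in the list only Ptger4, Ptger2 and Ptgir had a row in the table, and only Ptger4 passed the filter.

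Of 5 platelet-activating factor genes tested, 1 was higher in each class. Lpcat2, an enzyme that makes the lipid, stood at 401, 362, 403 and 322 CPM in C1q-high only and at 77.6, 68.2, 100.1 and 67.6 CPM in Plac8-high only cells of mice 14, 15, 2 and 3 (log2 2.57, SE 0.24, adjusted p = 1.82e-13, edgeR). Its receptor gene, Ptafr, was higher in Plac8-high cells, at 194 to 320.2 CPM against 79.1 to 151 CPM (log2 -0.77, SE 0.21, adjusted p = 0.00482). Pafah1b1 did not pass (log2 -0.30, adjusted p = 0.446). Anxa1, whose protein restrains phospholipase A2, was higher in Plac8-high cells, at 301 to 778 CPM against 93.5 to 199 CPM (log2 -1.56, adjusted p = 1.79e-10). Its list companions Hsp90ab1 (log2 0.36, adjusted p = 0.0511), Hsp90aa1 (0.12, 0.636) and Cotl1 (0.00, 0.991) did not pass.

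Upstream and downstream of the synthases few genes passed. None of the 5 phospholipase A2 genes tested did, Pla2g15 (log2 0.94, adjusted p = 0.0648), Pla2g16 (1.28, 0.0621) and Pla2g4a (-0.26, 0.774) among them. Of 6 leukotriene genes tested, Ggt5, a gamma-glutamyl transferase that acts on leukotriene C4, passed as higher in C1q-high cells on 2 UMIs in Plac8-high only cells (pooled ratio 4.38 with a counting interval of 1.16 to 37, adjusted p = 0.0455). Cyp4f18 (log2 0.44, adjusted p = 0.104), Mgst3 (-0.49, 0.457) and Cyp4f16 (-0.92, 0.106) did not. Hpgd (log2 0.66, adjusted p = 0.139) and Ptgr2 (0.69, 0.473), of prostaglandin breakdown, did not pass. Ephx1 and Ephx2, of the epoxide hydrolases, fell under the filter.

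**Figure D3:**
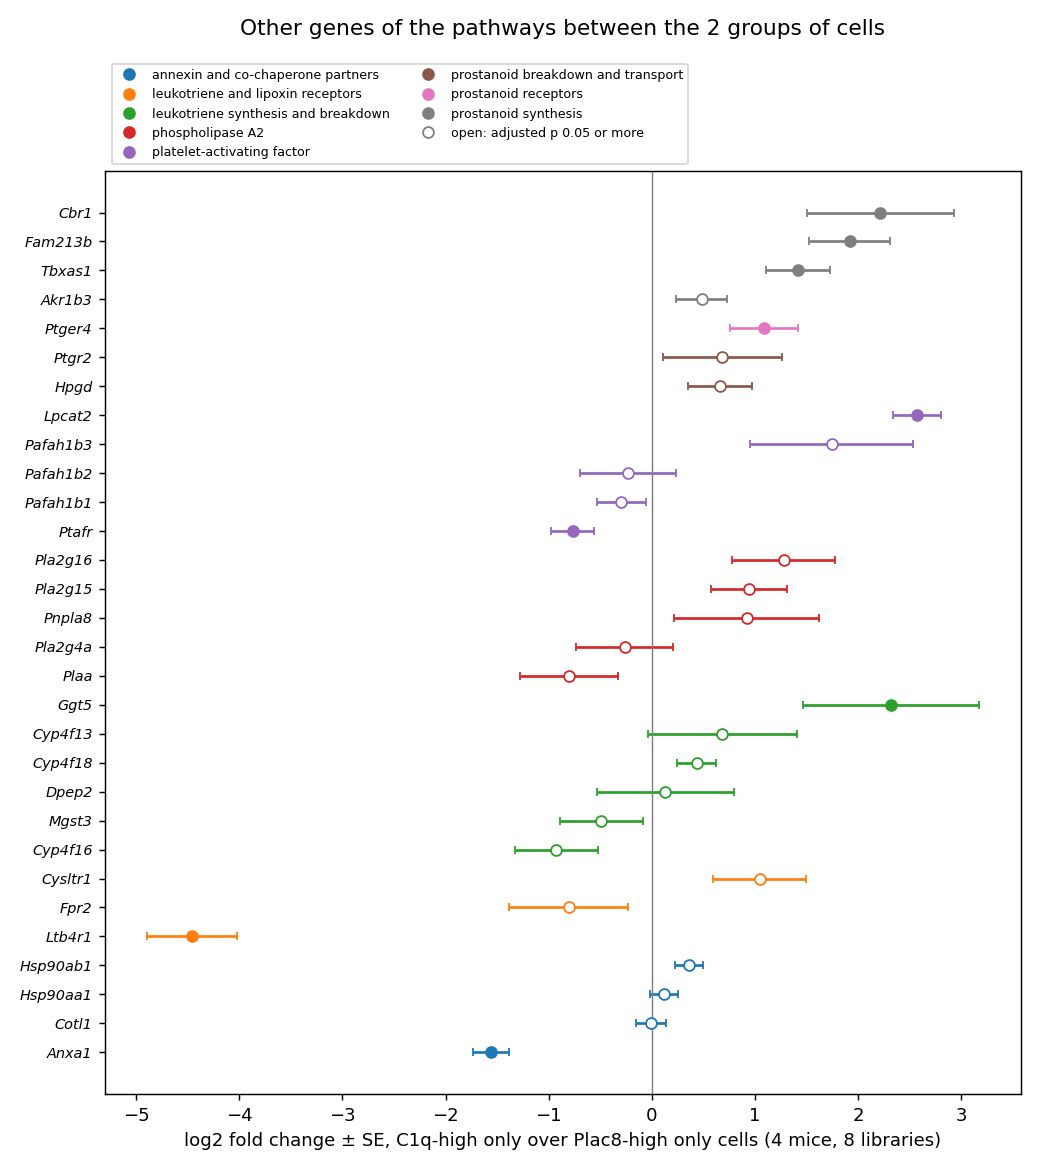
log2 fold change (horizontal axis, with SE) of C1q-high only over Plac8-high only cells for the 30 tested genes of the pathway list, coloured by role; filled points have an adjusted p under 0.05. Ltb4r1 at -4.46, Anxa1 at -1.56 and Ptafr at -0.77 are the filled points left of 0, and Lpcat2 at 2.57 is the farthest of 6 to the right.

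The second question was whether DEP changed these genes within the cells. No member passed in any of the 3 comparisons of DEP with PBS by edgeR, which called 1 of 5349 genes in all retained cells (0.0187%), 0 of 4748 in Plac8-high cells (0%) and 0 of 5536 in C1q-high cells (0%). At an unadjusted p under 0.05 there were 330, 247 and 318 genes, and DESeq2 called 1, 0 and 0. As background for groups that do not overlap, the 2 DEP values exceeded the 2 PBS values for 18.3% of genes in all retained cells, 18.1% in Plac8-high cells and 17.8% in C1q-high cells, and fell short of them for 18.6%, 17.3% and 18.8%.

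In C1q-high cells, Alox5ap stood at 235 and 245 CPM in the DEP mice and at 111 and 162 CPM in the PBS mice. The groups did not overlap, and the difference was 0.78 on the log2 scale (SE 0.20, adjusted p = 0.724, unadjusted p = 0.00191, edgeR). The thinned shares of C1q-high cells with a UMI of it were 24.4% and 22.8% in DEP and 13.3% in each PBS mouse. An exact two-sided permutation test over 4 mice gives p = 0.333, the smallest it allows. The difference passed in 2 of 14 alternatives, without PBS mouse 3 (log2 1.09, adjusted p = 0.0357) and with no filter on low counts (0.81, 0.0330). In the same C1q-high cells the 10 monocyte markers summed to 620.3 and 853 CPM in DEP and to 395 and 537 CPM in PBS mice, and the 10 macrophage markers to 56955 and 60713 against 62148 and 65100 CPM. The neutrophil (50.8 to 51.4 against 32.3 to 44.0 CPM), stromal or endothelial (48.7 to 50.8 against 22.8 to 41.5 CPM) and epithelial markers (22.2 to 23.7 against 12.7 to 19.6 CPM) were also higher in DEP mice, and eosinophil (1.59 to 2.63 against 3.46 to 9.78 CPM) and platelet markers (0 to 3.95 against 5.76 to 6.52 CPM) lower. The eosinophil and platelet sums of the DEP mice lay at or under 3 UMIs, a level of 4.76 and 3.95 CPM in mice 14 and 15. The part of these cell classes in the Alox5ap level was not tested. Without the cells of both classes the monocyte markers overlapped, at 275 and 413 against 251 and 432 CPM, and the Alox5ap difference was 0.67 (adjusted p = 0.924, edgeR), still without overlap. In Plac8-high cells the mice overlapped, at 951 and 990.3 CPM in DEP and 909 and 1485 CPM in PBS (log2 -0.31, SE 0.24, adjusted p = 0.941, edgeR).

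In Plac8-high cells, Ptgs2 stood at 186 and 393 CPM in the DEP mice and at 47.8 and 128 CPM in the PBS mice, without overlap (log2 1.71, SE 0.47, adjusted p = 0.741, unadjusted p = 0.00281, edgeR). The PBS values rest on 5 and 14 UMIs. The difference passed in 3 of 14 alternatives, without DEP mouse 14 (log2 2.14, adjusted p = 0.00109), with no filter on low counts (1.82, 0.00392) and without the cells of both classes (1.63, 0.0313). It was 1.07 without DEP mouse 15, 1.23 without PBS mouse 2 and 2.58 without PBS mouse 3, none of which passed. In C1q-high cells Ptgs2 stood at 63.4 and 107 CPM in DEP and at 119 and 46.1 CPM in PBS, and the mice overlapped (log2 0.11, SE 0.37, adjusted p = 0.973, edgeR).

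Ptges3 was the gene whose DEP mice lay above its PBS mice in each set of cells, at 112 and 121 against 83.8 and 88.7 CPM in all retained cells (log2 0.40, SE 0.18, adjusted p = 0.804, edgeR). The C1q-high cells gave 109 and 121 against 79.9 and 85.3 CPM (log2 0.47, adjusted p = 0.813), and the Plac8-high cells 124 and 111 against 76.5 and 100.2 CPM (log2 0.39, adjusted p = 0.963). The 3 sets share cells, so that their values are not independent. Alox5ap of all retained cells, at 369 and 408 against 230.4 and 310.4 CPM (log2 0.49, adjusted p = 0.742), and Pla2g7 of Plac8-high cells, at 321 and 309 against 239 and 228 CPM (log2 0.42, adjusted p = 0.933), were the other members with DEP above PBS. In all retained cells the class makeup also differed between the groups. Plac8-high cells were 31.0% and 25.7% of the retained cells of the DEP mice and 18.3% and 15.4% of those of the PBS mice. These shares are without the cells left out by markers, which were mostly C1q-high and a larger part of the cells in DEP mice. Within each group, the mouse with the larger share of Plac8-high cells had the lower Alox5ap level. The order was reversed for Plac8-high only cells, which leave out the cells of both classes. Within each group, a larger share of those went with the higher Alox5ap level. The part of the makeup in the Alox5ap level was not tested. The remaining members overlapped between the groups. In all retained cells the log2 differences were -0.07 for Alox5, 0.06 for Lta4h, -0.28 for Ltc4s, -0.22 for Ptgs1, 0.62 for Ptgs2, -0.21 for Hpgds and -0.21 for Pla2g7, with adjusted p from 0.8287 to 0.988 by edgeR. In C1q-high cells they were 0.19 for Alox5, -0.03 for Lta4h, -0.13 for Ltc4s, -0.06 for Ptgs1, -0.06 for Hpgds and -0.18 for Pla2g7, each with an adjusted p above that of Alox5ap. In Plac8-high cells, Alox5, Lta4h, Ltc4s, Ptgs1 and Hpgds had under 10 UMIs in at least 1 group, and no difference is given. Of the pathway list, 0 of 30, 27 and 29 genes tested passed in all retained, Plac8-high and C1q-high cells.

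**Figure D4:**
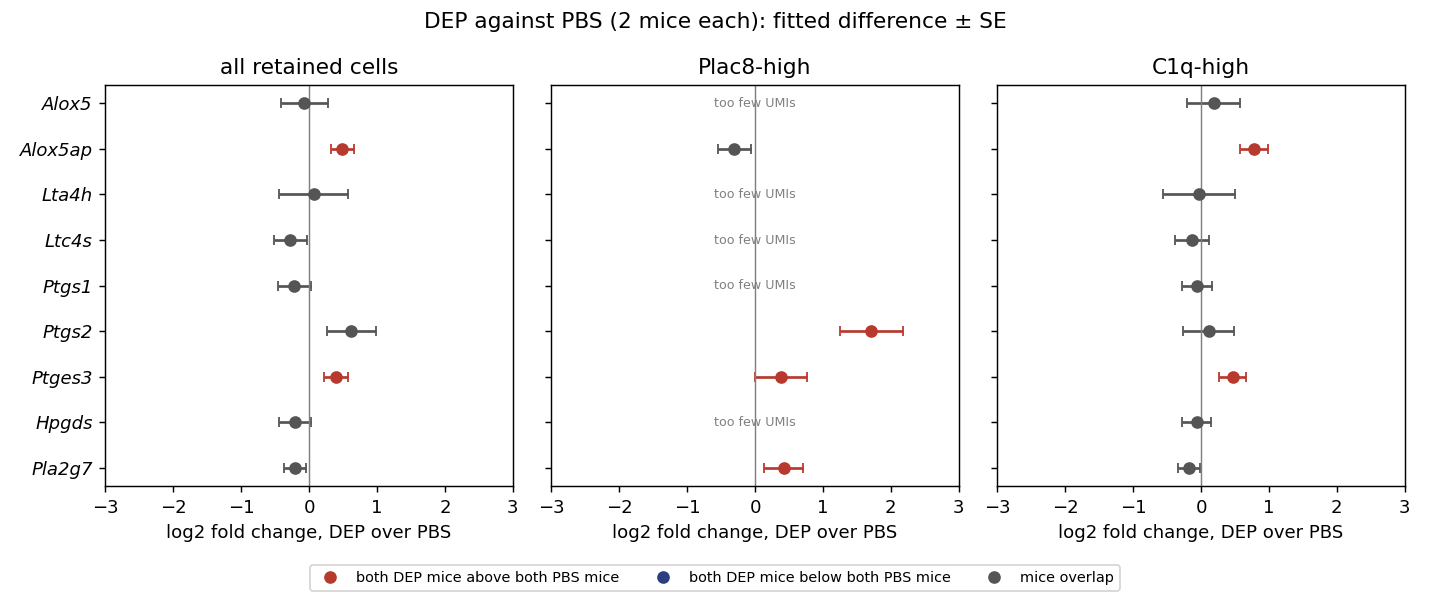
log2 fold change (horizontal axis, with SE) of DEP over PBS mice, 2 of each, for the 9 genes in all retained, Plac8-high and C1q-high cells; red points mark genes whose DEP mice both lie above the PBS mice, and genes with under 10 UMIs in a group have no point. Ptgs2 at 1.71 in Plac8-high and Alox5ap at 0.78 in C1q-high cells lie farthest from 0, and neither passed adjustment.

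By edgeR, the DEP effect on Alox5ap passed as different between the classes, a call that was lost in 8 of 13 alternatives. The p-value of this test leans on a spread shared over genes. It measures little of the spread of this gene between the 4 mice. In Plac8-high only cells both DEP mice (1193 and 1137 CPM) lay below both PBS mice (1701 and 1702 CPM), and in C1q-high only cells both DEP mice (183 and 228 CPM) lay above them (104 and 152 CPM). The interaction, the DEP effect in Plac8-high minus that in C1q-high cells, was -1.12 on the log2 scale (SE 0.27, n = 4 mice, adjusted p = 0.0167, edgeR), where 22 of 5351 genes passed (0.411%) and the median over all genes was 0.10. Leaving out DEP mouse 14 (-1.32, adjusted p = 0.0646), DEP mouse 15 (-0.93, 0.814) or PBS mouse 2 (-0.96, 0.202) ended the call, as did DESeq2 (-1.16, adjusted p = 0.99997). Several marker sums of the Plac8-high only cells also did not overlap between DEP and PBS mice. The neutrophil markers stood at 96.7 to 126 CPM in DEP and 158 to 200.1 CPM in PBS mice, the eosinophil markers at 0 to 56.9 against 80.1 to 101.5 CPM and the macrophage markers at 5874 to 7864 against 8669 to 9186 CPM. The B or plasma cell markers (320.0 to 472 against 271 to 300.2 CPM) and the T cell markers (11.4 to 19.4 against 0 CPM) were higher in DEP mice. The T cell sums all lay under 3 UMIs. That level is 29.1 and 17.1 CPM in mice 14 and 15 and 60.0 and 33.8 CPM in mice 2 and 3. The eosinophil sums rest on few UMIs. The monocyte and dendritic cell sums overlapped. Among genes tested in Plac8-high cells, 18.1% had both DEP mice above both PBS mice and 17.3% below. The part of these marker sums in the interaction was not tested. For Ptgs2 the interaction was 1.72 (SE 0.48, adjusted p = 0.0628), for Pla2g7 0.83 (adjusted p = 0.747) and for Ptges3 -0.20 (adjusted p = 1), and none of these passed. The Ptgs2 value was 4.92 without PBS mouse 3, where it passed (adjusted p = 2.91e-05), and 0.43 without PBS mouse 2 (0.979). None of the 30 tested genes of the pathway list passed.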

How the data were processed

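Single-cell RNA sequencing was performed on sorted colonic lamina propria cells of 2 DEP and 2 PBS mice, in a single batch. The authors aligned the 10x 3′ reads to mm10 with Cell Ranger (STAR 2.6.1a), kept cells by depth, genes detected and mitochondrial share, found no doublets, and deposited UMI counts per gene and cell, 943 cells, as many as their filter left. Gene names came from a table of Ensembl identifiers (12576 of 12596 matched). The 9 genes, the pathway list, the markers and the tests were chosen with earlier results of these data known. All 9 genes are named in each comparison. Of the pathway list, genes past the threshold and the up to 3 of highest mean level per role are named. No doublet caller was run.

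Counts were summed per mouse and class and fitted with edgeR 4.0.16 (R 4.3.3, TMM scaling, quasi-likelihood test, two-sided), over genes that exceeded 1 CPM in 2 or more libraries and had a UMI in 5% or more of the summed cells. Plac8 and the C1q genes were not tested between classes. CPM values and pooled ratios carry no TMM scaling, and fitted fold changes do. Between classes the TMM factors were 1.05 to 1.20 in Plac8-high only and 0.89 to 0.92 in C1q-high only libraries. The 2 measures can therefore differ. p-values were adjusted over all genes by Benjamini-Hochberg with a threshold of 0.05. Between classes as for DEP against PBS, the edgeR p-values lean on a spread shared over genes. They measure only in part the spread of a single gene between the mice. Depth was 668499 to 969606 UMIs per mouse. DESeq2 1.42.0, a likelihood ratio test, other scaling, filters, class cuts, thinning to 1000 UMIs per cell and leaving out each mouse were run as alternatives. Intervals cover counting error at 95%. The fit was also run on simulated counts, drawn with a single spread for all genes and the same base level of a gene in every library. The real libraries differ in both, so that run gives no error rates for them.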

Additional observations from a re-analysis of the deposited data

Results flagged for a closer look

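Alox5ap was singled out because its DEP effect differed between the classes by the interaction test. The DEP effect in Plac8-high minus that in C1q-high cells was -1.12 on the log2 scale (adjusted p = 0.0167, edgeR quasi-likelihood), from 1193 and 1137 CPM in DEP against 1701 and 1702 CPM in PBS mice in Plac8-high only cells and 183 and 228 against 104 and 152 CPM in C1q-high only cells. The sign held in the 13 alternatives run, and the call was lost in 8 of them, with adjusted p from 0.00202 to 0.99997 over all. No sample stood apart by Dixon's criterion for 4 mice in the 13 sets of member levels examined.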

How the results depend on the processing

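The class comparison was the firmest: the calls for Alox5ap, Ltc4s, Ptgs1, Hpgds and Pla2g7 and their directions held in all 15 alternatives, while that for Ptgs2 was lost with DESeq2 (-0.99, adjusted p = 0.266) and without DEP mouse 15 (-0.82, adjusted p = 0.0945). Genes called between classes numbered 1082, 596 with DESeq2, 455 after thinning, 1075 with no replicate block (mice not paired), 974 with cells of both classes counted in both, and 799 to 1030 without each mouse in turn. DEP and PBS mice share no numbers, so no paired analysis was possible for DEP against PBS. Calls of DEP against PBS in all retained, Plac8-high and C1q-high cells, 1, 0 and 0 by edgeR's quasi-likelihood test, were 9, 3 and 5 with the likelihood ratio test, 49, 18 and 21 with no filter on low counts, and 0, 0 and 0 after thinning. They were 1, 2 and 1 with all cells of the table and 2, 1 and 1 with a marker rule that ignored immunoglobulin transcripts, which was chosen after seeing the data. With the cells of both classes left out, 26 genes passed in Plac8-high and 0 in C1q-high cells. Leaving out DEP mouse 14, DEP mouse 15, PBS mouse 2 and PBS mouse 3 gave 2, 9, 1 and 0 calls in all retained cells, 12, 8, 11 and 2 in Plac8-high cells and 0, 5, 24 and 24 in C1q-high cells. The interaction gave 22 calls, 0 with DESeq2, 14 with no filter, 3 with all cells, 3 after thinning and 8, 11, 11 and 20 without the same mice.

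Among the members' log2 differences, 32 of 462 alternative values had the opposite sign. No value that had passed the threshold changed sign. For DEP against PBS in all retained cells Lta4h was -0.18 with all cells of the table and -0.22 with the marker rule without immunoglobulin. Ptges3 of Plac8-high cells was -0.40 after thinning. Lta4h of C1q-high cells was 0.065 with DESeq2, 0.0031 with the likelihood ratio test, 0.0024 with no filter, 0.047 with stricter class cuts and 0.035 without the cells of both classes, where Ptgs2 was -0.17 and Hpgds 0.032. With all cells of the table and with the marker rule without immunoglobulin, Alox5 of C1q-high cells was -0.096 and -0.086 and Ptgs1 6.5e-05 and 0.0052. Between classes Ptges3 was -0.038 with all cells. Without each mouse in turn, in all retained cells Alox5 ranged from -0.22 to 0.037, Lta4h from -0.60 to 0.85, Ltc4s from -0.53 to 0.13, Ptgs1 from -0.51 to 0.10 and Hpgds from -0.59 to 0.12. In Plac8-high cells Alox5ap ranged from -0.58 to 0.079. In C1q-high cells Alox5 ranged from -0.028 to 0.42, Lta4h from -0.72 to 0.86, Ltc4s from -0.40 to 0.29, Ptgs1 from -0.34 to 0.22, Ptgs2 from -0.49 to 0.90 and Hpgds from -0.37 to 0.22. The share of cells with a UMI, DEP minus PBS in percentage points, changed sign without thinning in Plac8-high cells for Lta4h (-1.28), Pla2g7 (-4.02) and Ptges3 (5.14), and in C1q-high cells for Alox5 (0.497), Lta4h (1.10), Ptgs2 (-4.27) and Hpgds (1.09). The causes were not tested. Depth limits Alox5, Lta4h, Ltc4s, Ptgs1 and Hpgds in Plac8-high cells, and 2 mice per group limit every comparison of DEP with PBS.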
